A study of Mus musculus with 6 samples.

Results

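The genes described here are the POU, SOX and neurogenic transcription factors of N2A cells, a mouse neuroblastoma line, and their response to depletion of the long non-coding RNA Dali. They were chosen by symbol alone: every probe set annotated to a single POU-domain, SOX, Neurog, Neurod, Ebf, Myt, Insm, Id or Pax gene (of the last, Pax2 to Pax8), or to Prox1, St18, Rest, Tbr1 or Eomes, with the probe set of highest mean standing for a gene. This gave 61 genes of 19938 with a probe set of their own. Only Pou3f2 had a second probe set, and that one read between 3.45 and 3.58 on all 6 arrays.

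Total RNA from 6 transfected cultures was hybridised to Affymetrix Mouse Gene 1.0 ST arrays. Dali knockdown cells (n = 3) carried an expression construct for a short hairpin RNA (shRNA) against Dali, and control cells (n = 3) carried a non-targeting vector. Both groups received 1.5 ug of construct by FuGENE 6 lipofection and were harvested 2.5 days later, so all cultures of the comparison had been transfected and untransfected cells were not sampled. The arrays bear on 1 Dali construct and 1 control vector, introduced transiently into a single cell line, and the level of Dali itself was not analysed here because no probe set was annotated to it. The series calls the samples biological replicates without naming cultures or days, so the spread between them may include technical variation. In RNA from a whole culture, fewer cells that express a gene and less RNA per cell cannot be told apart.

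POU factors bind DNA through a bipartite domain that recognises an octamer, and SOX factors through an HMG box that bends DNA. They often pair on neighbouring sites, and in the developing nervous system the POU class III and SOX group B1 proteins maintain neural progenitors. Proneural basic helix-loop-helix (bHLH) proteins of the Neurog and Neurod families bind E-boxes as dimers with E proteins and start neuronal differentiation, SOX group C, EBF and MYT factors act as it proceeds, and ID proteins oppose it by sequestering the E proteins. REST represses neuronal genes in cells that are not neurons. Pou3f3, also called Brn1, is the gene beside which Dali is transcribed, and so the comparison asks whether this network changes when the neighbouring transcript is depleted.

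Values are log2 RMA values, in which a difference of 1 is a doubling, and differences are Dali knockdown minus control. Values by array are listed for the arrays numbered 1, 2 and 3 of each group. A gene was called where limma gave a Benjamini-Hochberg adjusted p under 0.1 together with a change of at least 1.3-fold, which is 0.38 on the log2 scale, and "rose" and "fell" are kept for called genes. None of the 34 members that passed a filter on variance was called, against 1.14% of all 11705 probe sets tested (133). Without that filter 3 members had an unadjusted p under 0.05, against 11.1% of all genes, and limma again called 0 of 61. The replicate numbers of the labels were taken as pairs, although the arrays numbered 1 deviated together only weakly (correlation of 0.14 over annotated probe sets). With the number as a block limma called 1 member, Id2, which fell. In that fit 572 of all probe sets (4.89%) were called lower, and 7.65% in either direction. Id2 was not called when the arrays numbered 2 or 3 were left out of it. The largest positive differences were those of Insm1, Sox11 and Sox12, whose 3 knockdown arrays all lay above every control array, with mean changes of less than 1.3-fold.

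Promoters of Id2, Sox11 and Sox12 are shown first so that their E-boxes and octamers can be read beside the values. These genes differed in the same direction in all 3 pairs of arrays and had an adjusted p under 0.1 with the replicate block. Insm1 and Ebf4 did so too. Agreement of all 3 pairs was common on these arrays and does not by itself set a gene apart. Of all genes, 21.5% were higher in every pair and 19.95% lower in every pair. Of the members, 11.5% were higher in every pair and 9.84% lower. Insm1 had no promoter entry, and the promoter of Ebf4, with an E-box, no octamer and 35 CpG dinucleotides, is not shown. Each run holds the 250 bases before and the first 50 bases after the transcription start in RefSeq (build GRCm38.p6), 5′ to 3′ on the gene's strand, with matches to the POU octamer ATGCAAAT or to the E-box CANNTG, on either strand, in capitals. In Sox12 the octamer and an E-box overlap. The Id2 promoter lies at chr12:25096043-25096342, that of Sox11 at chr12:27342669-27342968 and that of Sox12 at chr2:152397997-152398296, all on the minus strand.
Id2: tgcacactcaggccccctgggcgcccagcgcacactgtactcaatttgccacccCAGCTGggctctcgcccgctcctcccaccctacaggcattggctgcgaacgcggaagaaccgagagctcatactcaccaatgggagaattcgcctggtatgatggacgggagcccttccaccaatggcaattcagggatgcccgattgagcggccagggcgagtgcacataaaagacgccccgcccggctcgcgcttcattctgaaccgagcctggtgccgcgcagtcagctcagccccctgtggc
Sox11: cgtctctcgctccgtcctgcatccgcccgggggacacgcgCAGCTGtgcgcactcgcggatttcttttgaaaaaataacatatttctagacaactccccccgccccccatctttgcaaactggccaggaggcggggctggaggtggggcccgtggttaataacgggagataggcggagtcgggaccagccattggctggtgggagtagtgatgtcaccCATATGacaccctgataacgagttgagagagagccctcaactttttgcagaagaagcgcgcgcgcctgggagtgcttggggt
Sox12: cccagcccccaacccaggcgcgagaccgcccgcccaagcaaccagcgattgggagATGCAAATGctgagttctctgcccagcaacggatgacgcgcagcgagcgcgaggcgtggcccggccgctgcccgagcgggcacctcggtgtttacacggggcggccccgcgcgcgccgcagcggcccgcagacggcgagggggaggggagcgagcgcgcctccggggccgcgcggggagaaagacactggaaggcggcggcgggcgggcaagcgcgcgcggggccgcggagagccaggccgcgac

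RefSeq promoters were matched to 45 of the 61 members (63 promoters, since some genes have several starts). Insm1, Id1 and Pou3f1 were among those without an entry. The octamer occurred in 4 of the 63 promoters, those of Sox12, Sox1, Myt1l and Neurog1, and in 1.74% of all 32851 promoters of the same length. In Sox12 it began 195 bases before the start. E-boxes were present in 41 of the 63 promoters, against 72.3% of all promoters, and the SOX core ACAAAG, on either strand, in 16 of 63, against 18.7%. The promoter of Sox12 held 47 CpG dinucleotides and those of Id2 and Sox11 held 21 each, against a median of 14 over the members and 7 over all promoters. These matches describe the letters of the window and were not set against any binding data.

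Most of these factors lay low on the scale of the array. RMA gives no detection call, so levels were set beside 1210 probe sets of olfactory and vomeronasal receptors, genes of sensory neurons of the nose, and 44 probe sets of keratin-associated proteins (Krtap), genes of the hair shaft. The 95th percentile of the receptors was 7.17 in Dali knockdown and 7.11 in control arrays, and that of the Krtap genes was 9.23 and 9.01. By their control means, 15 members lay above both lines, 30 above the receptor line only and 16 below it. Of all 19938 genes, 8451 lay above both lines, 5376 above the receptor line only and 6111 below it. Members were thus less often above both lines than all genes were, but not more often below the receptor line. The median member read 7.84 in controls, against 8.38 for the median of all genes. Probe sets differ in affinity and base composition, so these lines are a rough guide and the levels of different genes were not ranked against each other.

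The 15 genes above both lines were Sox1, Sox3, Sox4, Sox8, Sox9, Sox11, Sox12, Ebf3, Ebf4, Myt1, Myt1l, St18, Insm1, Id1 and Id2. They included all 3 SOX group C genes and all 3 MYT genes, but 0 of 11 POU genes, 0 of 7 neurogenic bHLH genes, 0 of 7 PAX genes and 0 of 2 T-box genes. Of the proneural genes, Neurod1, Neurod4, Neurod6 and Neurog3 lay below the receptor line, as did Sox2, Pou5f1, Ebf1, Ebf2, Tbr1 and Eomes. The plot of levels on 6 arrays shows the knockdown and control symbols of most genes interleaved.

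**Figure D1:**
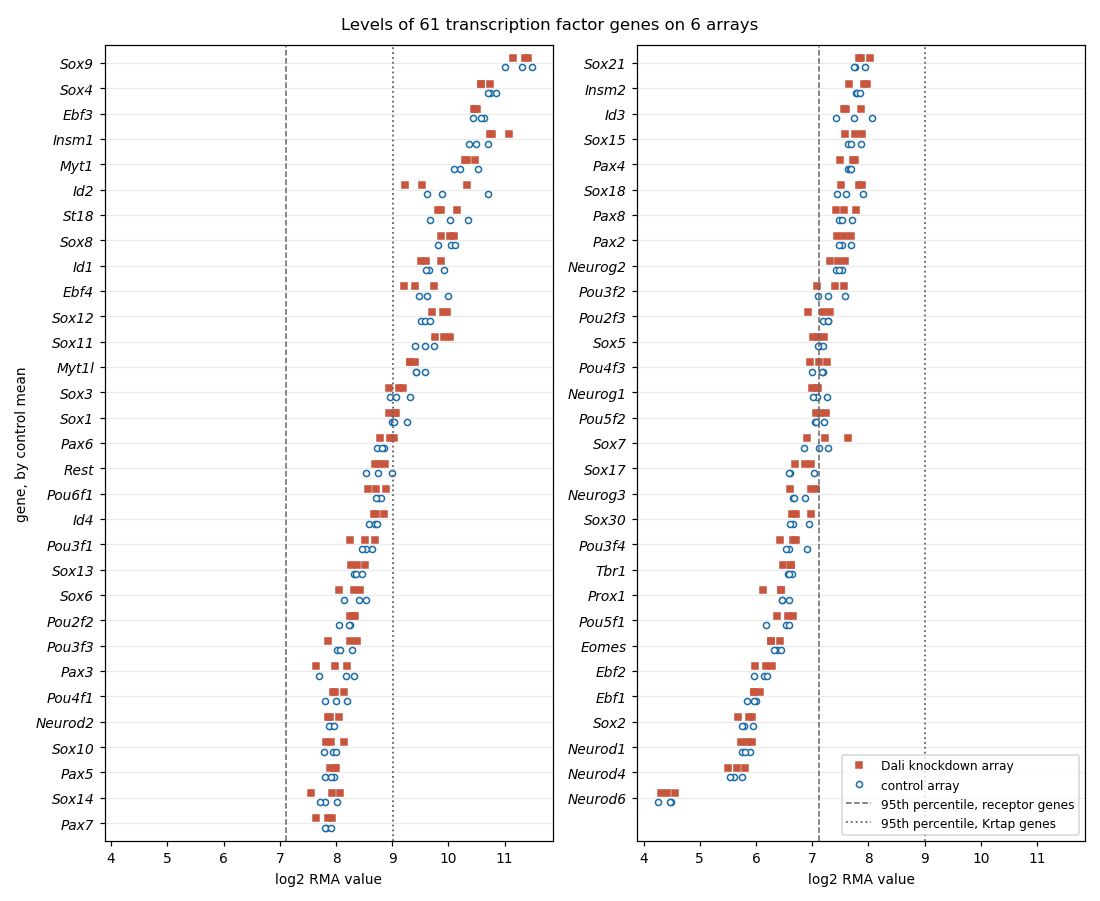
Log2 RMA values (x axis) of the 61 genes (y axis, ordered by control mean, which does not rank RNA amounts between genes) on the 3 Dali knockdown arrays (filled squares) and the 3 control arrays (open circles). The dashed and dotted lines mark the 95th percentiles of receptor (7.11) and Krtap (9.01) probe sets in control arrays. Of the 61 genes, 15 have control means above both lines.

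The median difference of the 61 members was 0.0095 on the log2 scale, with quartiles of -0.055 and 0.049, against a median of 0.016 and quartiles of -0.075 and 0.097 over all genes. Means were higher in knockdown cells for 35 members and lower for 26, while 55.0% of all genes had higher means. Knockdown arrays lay above all control arrays for 4 members (Insm1, Sox11, Sox12 and Pou2f2), against 8.47% of all genes, and below all of them for 2 (Myt1l and Prox1), against 7.11%. Among all 61, only Id2 differed by 1.3-fold or more. The 95% interval of the difference stayed inside 1.3-fold in both directions for 43 members, while 58.8% of all genes had intervals that narrow.

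For many of the dimmer genes the sign of the difference depended on the pair of arrays. The median member differed by 0.092 between the arrays numbered 1, by -0.063 between those numbered 2 and by -0.058 between those numbered 3, against 0.052, -0.0040 and -0.023 over all genes. For the 30 genes between both lines these medians were 0.12, -0.097 and -0.084. Sox7 (0.53), Pou5f1 (0.47), Pou3f2 (0.46), Sox18 (0.44) and Neurog3 (0.41) had the widest excess in the knockdown array numbered 1, and each of them was lower than control in at least one other pair. Deviations from the group means correlated over the members at -0.031 for the arrays numbered 1, 0.66 for those numbered 2 and 0.75 for those numbered 3.

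**Figure D2:**
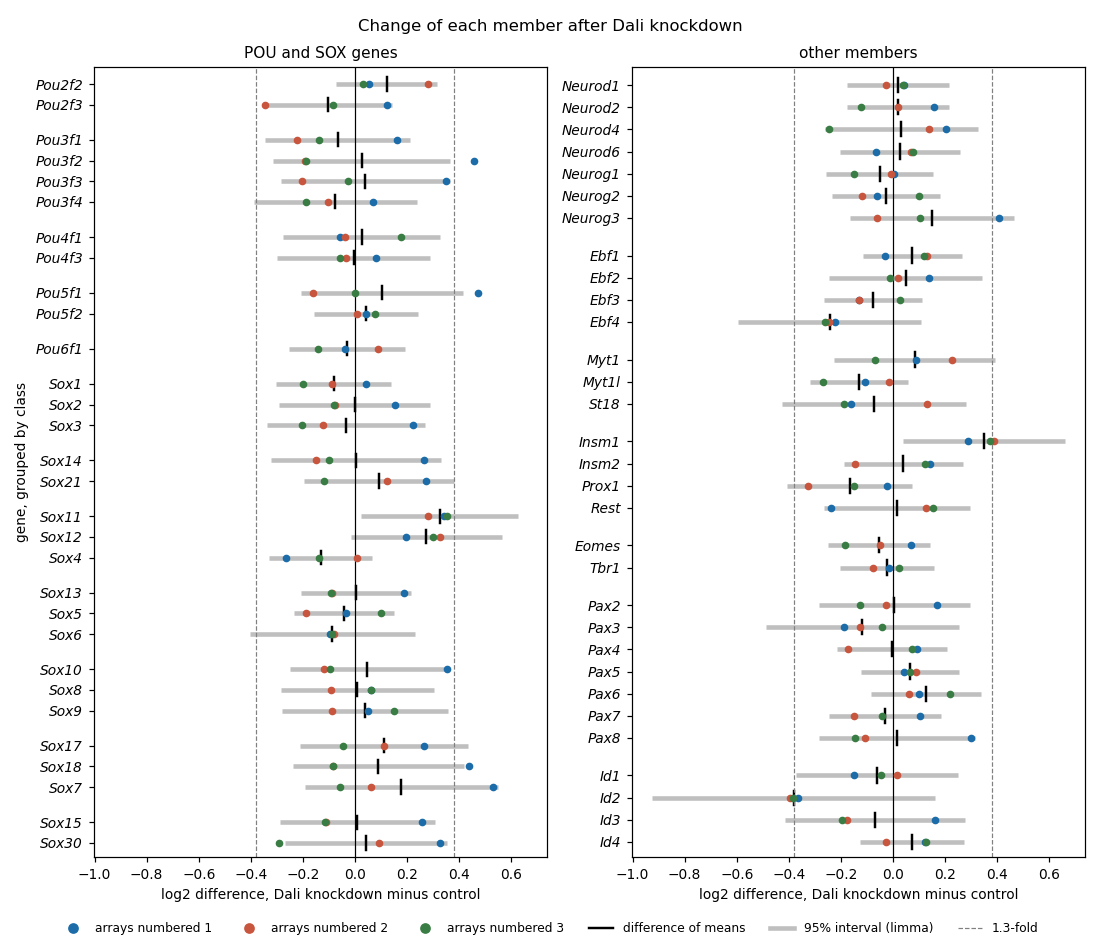
Differences between Dali knockdown and control (x axis, log2) for each of the 61 genes (y axis, grouped by class). Each coloured point is 1 pair of arrays with the same number, black bars are the difference of group means, grey bars its 95% limma interval, and dashed lines 1.3-fold. Insm1, Sox11 and Sox12 lie to the right of 0 in all 3 pairs, and Id2 and Ebf4 to the left with their points close together.

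Pou3f3 showed no difference beyond the spread between arrays. It had 8.37, 7.86 and 8.26 in Dali knockdown arrays, against 8.02, 8.06 and 8.28 in control arrays. The groups overlapped, and the gene was higher in knockdown array 1 and lower in the other two than in the control of the same number. The difference was 0.040 ± 0.15 (SE, n = 3 each; limma adjusted p = 0.967), with a 95% interval of -0.29 to 0.36 that stayed inside 1.3-fold in both directions. This holds for 1 probe set, whose control mean of 8.12 lay above the receptor line but below the Krtap line. By RT-qPCR after transient knockdown with several Dali shRNA constructs, at a later time than the arrays, the study reported reduced Pou3f3 transcript. The reported fall was larger than the lower limit of the array interval, -0.29, allows. The study also reported lower Pou3f3 in stable Dali knockdown clones, and higher Pou3f3 when Dali was induced in embryonic stem cells. Why the array values differ from the RT-qPCR result after transient knockdown was not tested.

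The other class III genes, relatives of Pou3f3 in neural progenitors and in the cortex, gave similar pictures. Pou3f1 (Oct6), known for its part in myelinating Schwann cells, had 8.70, 8.24 and 8.51 in knockdown arrays and 8.53, 8.46 and 8.65 in controls (difference -0.066 ± 0.12, SE). Pou3f2 (Brn2) had 7.56, 7.08 and 7.40, against 7.10, 7.28 and 7.59 in controls (0.026 ± 0.16). Array 2 was the lowest knockdown array for all 4 class III genes and array 1 the highest for 3 of them. Pou3f4 (Brn4), a gene of the inner ear and striatum, lay below the receptor line at 6.66, 6.42 and 6.72 in knockdown and 6.59, 6.53 and 6.91 in control arrays (-0.075 ± 0.15). In all 4 genes the groups overlapped and the sign of the difference turned when single arrays were left out.

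The remaining 7 POU genes spanned class II, IV, V and VI. Pou2f2 (Oct2), a factor of B cells and of some neurons, was the single POU gene whose groups did not overlap, with 8.30, 8.34 and 8.26 in knockdown arrays and 8.25, 8.06 and 8.23 in controls. Its difference was small, 0.12 ± 0.084 (SE), and the control spread came largely from control array 2. Pou4f1 (Brn3a), of sensory neurons, averaged 8.03 ± 0.10 in knockdown and 8.002 ± 0.19 in control cells (SD, n = 3 each). Pou5f1 (Oct4), the pluripotency factor, averaged 6.54 ± 0.15 and 6.43 ± 0.21, below the receptor line in both groups. Over all 11 POU genes the differences ran between -0.10 and 0.12, and 6 were positive.

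Within SOX group C, the means of Sox11 and Sox12 were higher in knockdown cells and that of Sox4 was not, and none was called. The 3 genes encode closely related activators that are switched on as progenitors become neurons and act partly in place of one another. Sox11 had 9.92, 10.03 and 9.76 in Dali knockdown arrays, against 9.58, 9.75 and 9.40 in control arrays. Every knockdown array lay above every control array, although knockdown array 3 and control array 2 were only just apart. The pairwise differences were 0.34, 0.28 and 0.35, and the mean difference was 0.33 ± 0.14 (SE; 1.25-fold; limma adjusted p = 0.352).

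Sox12 was also higher in all 3 pairs. It had 9.70, 9.91 and 9.97 in knockdown arrays and 9.51, 9.58 and 9.67 in control arrays, a difference of 0.27 ± 0.14 (SE; 1.21-fold; limma adjusted p = 0.42). The groups did not overlap, the lowest knockdown array standing just above the highest control array. With the replicate block, in which limma gave 22.1% of all probe sets an adjusted p under 0.1 whatever their fold, Sox11 (adjusted p = 0.035) and Sox12 (0.0609) were among 5 such members, but both stayed under 1.3-fold.

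Sox4 gave a difference of the opposite sign. It had 10.58, 10.75 and 10.57 in knockdown arrays, against 10.84, 10.74 and 10.71 in control arrays, and the groups overlapped through knockdown array 2. The difference was -0.13 ± 0.086 (SE), with a 95% interval of -0.33 to 0.067 (limma). Whether the change of Sox4 differs from those of Sox11 and Sox12 was not tested.

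SOX group E contains Sox9, which specifies neural stem cells and glia, with Sox8 and Sox10. Sox9 had 11.35, 11.41 and 11.15 in knockdown arrays, against 11.30, 11.50 and 11.005 in controls, with array 3 the lowest of both groups. The difference of 0.037 ± 0.15 (SE) was a fraction of the spread between control arrays. Sox8 had 10.10, 10.02 and 9.88, against 10.04, 10.12 and 9.82 in controls, again with array 3 lowest in both groups (0.0095 ± 0.14). Sox10, the factor of oligodendrocytes and Schwann cells, averaged 7.96 ± 0.17 in knockdown and 7.91 ± 0.11 in control cells (SD, n = 3 each).

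Group B1 genes keep neural progenitors undifferentiated. Sox1 averaged 9.02 ± 0.069 in knockdown and 9.10 ± 0.15 in control cells, and Sox3 averaged 9.09 ± 0.12 and 9.12 ± 0.18, both near the Krtap line. Sox2, the best known of them, lay well below the receptor line at 5.83 ± 0.13 and 5.83 ± 0.11 (SD, n = 3 each). Its difference was -0.0011 ± 0.14 (SE). The endothelial group F genes Sox7, Sox17 and Sox18 had differences of 0.18, 0.11 and 0.090, all larger between the arrays numbered 1 than between the others, and no group F gene lay above the Krtap line. Over the 19 SOX genes differences ran between -0.13 and 0.33, and 13 were positive.

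Insm1 had the largest positive difference of all members. It encodes a zinc-finger repressor that drives neuroendocrine and neuronal progenitors toward differentiation. Its values were 10.78, 10.75 and 11.08 in Dali knockdown arrays, against 10.49, 10.36 and 10.70 in control arrays. Array 3 was the highest of both groups and control array 3 came close to knockdown array 2, but no values overlapped. The difference was 0.35 ± 0.15 (SE; 1.27-fold), similar in all pairs (0.29, 0.39 and 0.37), with a limma adjusted p of 0.328 and, with the replicate block, 0.0298 at less than 1.3-fold. Its relative Insm2 averaged 7.85 ± 0.17 in knockdown and 7.81 ± 0.041 in control cells (SD, n = 3 each).

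**Figure D3:**
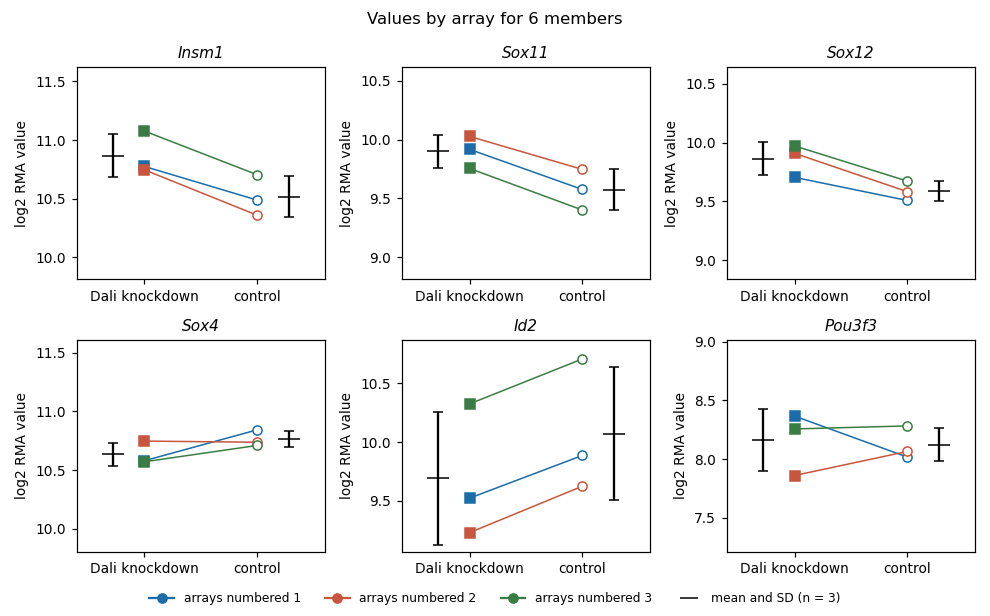
Log2 RMA values (y axis, each panel spanning the same range) of 6 members on Dali knockdown arrays (filled squares, left) and control arrays (open circles, right). Lines join arrays of the same number, and black bars are group means with SD (n = 3). Lines slope the same way in all 3 pairs for Insm1, Sox11, Sox12 and Id2, and not for Sox4 and Pou3f3.

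Id2 was lower by a similar amount in each pair while its level varied widely between pairs. ID proteins lack a basic region, so their dimers with E proteins cannot bind DNA, and in many tissues Id genes are switched on by BMP signalling. Id2 had 9.52, 9.23 and 10.32 in knockdown arrays, against 9.89, 9.62 and 10.71 in control arrays. Array 3 was far above the other arrays in both groups, so the groups overlapped, yet the pairwise differences were -0.36, -0.40 and -0.38.

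The call for Id2 therefore turned on how the replicate numbers were used. Unpaired, the difference was -0.38 ± 0.26 (SE; 1.302-fold; limma adjusted p = 0.575). With the replicate block its SE was 0.077, the adjusted p was 0.0218 and Id2 fell. It just reached 1.3-fold, and its adjusted p was 0.213 in the block fit without the arrays numbered 2 and 0.185 without those numbered 3, so neither of those smaller fits called it. In the unpaired fit Id2 differed by -0.70 without knockdown array 3 (adjusted p = 0.0883), by -0.15 without knockdown array 2 (0.78) and by -0.063 without control array 3 (0.884).

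Id1, Id3 and Id4 gave differences nearer to 0, and array 3 was high in each group for Id1 and Id3 as well. Id1 averaged 9.66 ± 0.19 in knockdown and 9.72 ± 0.17 in control cells, Id3 averaged 7.68 ± 0.17 and 7.75 ± 0.32, and Id4 averaged 8.74 ± 0.098 and 8.67 ± 0.079 (SD, n = 3 each). Their differences were -0.061, -0.070 and 0.074. Unpaired 95% intervals (limma) were -0.37 to 0.25 for Id1 and -0.42 to 0.28 for Id3, and whether any of these changes differs from that of Id2 was not tested.

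Among the EBF genes, helix-loop-helix factors of neuronal migration and differentiation, Ebf3 and Ebf4 lay above both lines. Ebf4 had 9.40, 9.75 and 9.21 in knockdown arrays, against 9.63, 9.99 and 9.47 in controls. The groups overlapped, array 2 being high and array 3 low in each, but knockdown was lower in every pair (-0.22, -0.24 and -0.26). The difference was -0.24 ± 0.17 (SE; 1.18-fold; limma adjusted p = 0.582, and 0.0769 with the replicate block, below the fold threshold). Ebf3 had 10.50, 10.45 and 10.47, against 10.63, 10.58 and 10.44 in controls, and differed by -0.078 ± 0.082.

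The MYT family encodes zinc-finger proteins of neurons and their precursors, of which Myt1l represses genes of other lineages. Myt1l had 9.32, 9.41 and 9.31 in knockdown arrays and 9.43, 9.42 and 9.58 in control arrays. Its knockdown arrays all lay below its controls, by little in array 2, and the difference was -0.13 ± 0.082 (SE). Myt1 had 10.30, 10.32 and 10.47, against 10.21, 10.10 and 10.54 in controls (0.083 ± 0.15). St18, also known as Myt3, had 9.86, 9.81 and 10.16, against 10.02, 9.68 and 10.35 (-0.073 ± 0.17). Both of these genes were highest in array 3 of each group, and their groups overlapped.

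Prox1, a homeobox factor of neuronal and lymphatic lineages, lay below the receptor line. It had 6.45, 6.13 and 6.44 in knockdown arrays, against 6.47, 6.46 and 6.59 in controls, and although the groups did not overlap, knockdown array 1 was almost level with control array 2 (-0.17 ± 0.10, SE). Pax6, a regulator of eye, cortical and pancreatic progenitors, had 8.95, 8.79 and 9.04, against 8.86, 8.72 and 8.82 in controls, and was higher in each pair (0.13 ± 0.092). None of these differences approached 1.3-fold. The other 6 PAX genes differed by -0.12 to 0.066, with Pax3, of neural crest and muscle, lower in all pairs.

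The proneural bHLH genes were near background and did not separate the groups. Neurod2, of cortical pyramidal neurons, averaged 7.93 ± 0.10 in knockdown and 7.91 ± 0.052 in control cells, and Neurog2, a starter of cortical neurogenesis, averaged 7.45 ± 0.13 and 7.48 ± 0.046. Neurod1 averaged 5.83 ± 0.10 and 5.82 ± 0.067, below the receptor line. Differences of the 7 genes lay between -0.052 and 0.15, the last that of Neurog3, whose excess came mainly from the arrays numbered 1. Eomes and Tbr1, T-box genes of glutamatergic cortical neurons, were likewise below the receptor line and differed by -0.055 and -0.022.

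**Figure D4:**
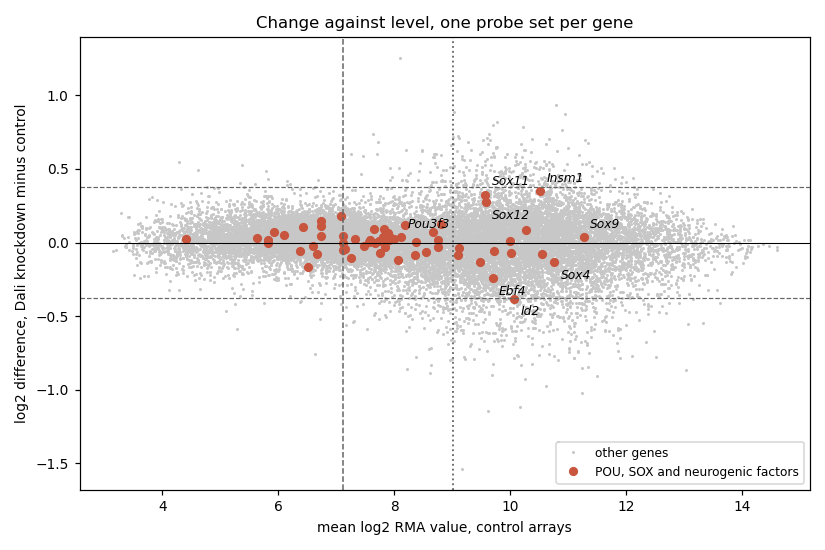
Difference between Dali knockdown and control (y axis, log2) against the mean log2 RMA value of control arrays (x axis) for 19938 genes (grey) and the 61 members (red). Horizontal dashed lines mark 1.3-fold, and vertical lines the receptor (dashed) and Krtap (dotted) references. Members below the receptor line lie between -0.17 and 0.18, and the members furthest from 0 (Insm1, Sox11, Sox12, Id2 and Ebf4) lie right of the dotted line.

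Rest, the repressor of neuronal genes, had values of 8.76, 8.87 and 8.69 in knockdown arrays and 8.996, 8.75 and 8.54 in controls, and the groups overlapped. It differed by 0.015 ± 0.12 (SE). Its corepressors lay well above background, and 11 of 13 measured had higher means in knockdown cells, against 55.0% of all genes. None of them was called. Sin3a, a scaffold for histone deacetylases, averaged 10.66 ± 0.073 in knockdown and 10.43 ± 0.060 in control cells, and Ctdsp1, a phosphatase that stabilises REST, averaged 9.35 ± 0.20 and 9.13 ± 0.14 (SD, n = 3 each).

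Neuronal genes that REST is known to repress had mostly lower means. Of 16 measured, 4 had higher means, against 55.0% of all genes. The median difference was -0.13 and 0 were called in the unpaired fit. Whether these genes or the corepressors differ as a list from all genes, and any part of REST in it, was not tested. With the replicate block 2 fell and 1 rose, of the 7.65% called over all probe sets in that fit. Gria2, an AMPA receptor subunit, had 9.84, 10.09 and 9.50 in knockdown arrays, against 10.37, 10.43 and 10.37 in controls, and fell (-0.58 ± 0.11, SE with the block; adjusted p = 0.0178, and 0.111 unpaired). Syt4, a synaptotagmin of secretory vesicles, fell by the same fit, with 11.46, 11.48 and 11.61, against 11.80, 11.94 and 12.20 in controls (adjusted p = 0.0172, and 0.163 unpaired). Cplx1, which clamps vesicle fusion, rose, with 11.14, 10.99 and 11.12, against 10.88, 10.71 and 10.50 in controls (adjusted p = 0.0388, and 0.247 unpaired). In each of these 3 genes the groups did not overlap. Of all probe sets, the block fit called 926 without the arrays numbered 1, 0 without those numbered 2 and 1 without those numbered 3, against 896 with all pairs.

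Pan-neuronal genes were mixed. Of 16 measured, 7 had higher means and the median difference was -0.030. With the replicate block 2 fell, Stmn4, a microtubule regulator (9.16 ± 0.19 in knockdown and 9.63 ± 0.10 in control cells; adjusted p = 0.0181), and Dpysl3, of growth cones (12.77 ± 0.034 and 13.16 ± 0.066; adjusted p = 0.0226). In that fit 4.89% of all probe sets were called lower, and the dependence of its calls on the arrays numbered 2 and 3 given for the REST-regulated genes holds for the fit as a whole. Neither gene was called unpaired (adjusted p = 0.153 and 0.207). Tubb3, Elavl3 and Gap43, common markers of neurons, differed by -0.049, 0.041 and -0.011.

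The partners and antagonists of the bHLH factors were measured for 14 genes, of which 7 had higher means and 0 were called in either fit. Hes6, which antagonises Hes1 and favours neuronal differentiation, came closest, with 9.06, 9.07 and 9.15 in knockdown arrays, against 9.37, 9.38 and 9.59 in controls. Its groups did not overlap, and it differed by -0.35 ± 0.13 (SE; limma adjusted p = 0.273, and 0.0307 with the block, short of 1.3-fold). The E proteins Tcf3, Tcf4 and Tcf12, with which proneural and ID proteins dimerise, differed by 0.069, -0.012 and 0.073. Atoh1, a proneural gene of cerebellum and hair cells, lay below the receptor line and differed by 0.22 ± 0.15.

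Genes of BMP signalling, which acts upstream of Id genes in many tissues, numbered 15. Of these 11 had higher means, against 55.0% of all genes, and 0 were called in either fit. Their median difference was 0.056. Bmpr1a, a type I receptor, averaged 12.36 ± 0.044 in knockdown and 12.12 ± 0.097 in control cells, and Bmpr2, the type II receptor, averaged 11.81 ± 0.080 and 12.04 ± 0.091 (SD, n = 3 each). The differences of these receptors were of opposite sign, at 0.24 ± 0.13 and -0.23 ± 0.086 (SE). Smad1, Smad4 and Smad5, which carry the signal to the nucleus, differed by 0.057, 0.10 and -0.047.

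Array medians lay between 7.86 and 7.93 and arrays correlated at 0.990 to 0.997. The neuroblastoma label was checked against markers, and all 8 measured genes of a sympathoadrenal list (such as Phox2a, Hand2, Gata2 and Dbh) lay above both lines. Their mean level was 10.51 to 10.69 over knockdown arrays and 10.70 to 10.82 over control arrays. Of the 8 genes 2 had higher means in knockdown cells, against 55.0% of all genes, and 0 were called. Their median difference was -0.20. Mycn, Phox2a and Hand2 had every knockdown array below every control array, against 7.11% of all genes. Of the markers of other cell types, 0 of 5 glial, 0 of 5 immune, 0 of 4 endothelial and 0 of 4 pluripotent genes lay above both lines, and 1 of 7 fibroblast genes did. That gene was Pdgfrb, which fell with the replicate block (-0.61 ± 0.10, SE; adjusted p = 0.0131, and 0.486 unpaired). The mean level of the fibroblast list was 7.65 to 7.81 in knockdown and 7.76 to 7.92 in control arrays. By control means, 2 glial, 3 immune, 2 endothelial, 3 pluripotent and 1 fibroblast genes lay below the receptor line. The rest, apart from Pdgfrb, lay between both lines, as Pou3f3 did (8.12), among them Mbp (8.24) and Col3a1 (8.23). A level above the receptor line alone therefore does not show that a gene is expressed. The part of these marker levels in the differences of Insm1, Sox11, Sox12, Id2 and the neuronal genes was not tested.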

How the data were processed

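RNA of 3 Dali knockdown and 3 control cultures was measured on Affymetrix Mouse Gene 1.0 ST arrays (200 ng of RNA each). Per the labels and the methods of the study, the authors processed the arrays in R with oligo, limma and genefilter: RMA background correction, quantile normalisation and gene-level summary. The deposited values are log2 RMA values. Versions of their tools, and the set of arrays that entered the normalisation, are not given in the sources used here.

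Of 35556 rows, 21789 were paired with 1 gene symbol, 1621 with several and 12146 with none. All 61 members were matched by Entrez number to a GRCm38.p6 table, which changed 0 symbols. Following the methods of the study, the test was that of limma (version 3.58.1 under R 4.3.3), a moderated two-sided comparison of both groups by lmFit and eBayes. A variance cut-off, read here as the median of the interquartile range, kept 11705 of 23410 annotated probe sets, and p-values were adjusted over all of them. Values of the 27 members that the filter removed came from the same model fitted to all annotated probe sets. The moderation of the SE differs between these fits, so SEs and intervals of kept and removed members are not directly comparable. For Sox12, for example, the unadjusted limma p was 0.0608 with the filter and 0.0206 without it. Counts of intervals inside 1.3-fold mix both fits. Precision is limited by having 3 arrays a group, and an exact permutation test of 3 against 3 arrays cannot go below p = 0.1.

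Arrays of the same number deviated together from their group means (correlations of 0.14, 0.65 and 0.65 over annotated probe sets, all above the bound of 0.1), so the numbers in the labels were taken as pairs. Control array 1 correlated more with knockdown array 2 (0.20) than with its own partner. A fit that takes the pair as a block (the replicate block) is reported where it changed a call. It is also given for the 5 members with an adjusted p under 0.1 in it, and for Hes6. Most other genes are given without it.

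Members were picked by symbol alone, but the symbols and the related gene lists were set with earlier results of these data known. Genes given by array were the POU class III genes, members called in either fit, and the 10 members with the highest mean or the smallest p without the filter. Of each related list, called genes or the 2 with the smallest p were named. Rest, given by array, and Pou4f1 and others, given as means or differences, were added for their roles. The fit was tested on simulated data in which arrays were independent. Those data lack the shared deviations of arrays with the same number, so the test cannot bear on calls made with the replicate block.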

Additional observations from a re-analysis of the deposited data

How the results depend on the processing

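The count of 0 members called by limma was the same without the variance filter, with unannotated rows in it, with dim probe sets removed, with array medians centred, with a trended and robust prior, and with every probe set of a member. With the replicate block it was 1 (Id2), and 5 whatever the fold (Id2, Insm1, Sox11, Sox12 and Ebf4, a setting added after the data were seen). Leaving out single arrays gave 0 to 1 members, the 1 being Id2 without knockdown replicate 3. In the block fit, leaving out a pair gave 0 to 2 members (Id2 and Insm1 without the arrays numbered 1, 0 without those numbered 2 or 3), also a setting added after the data were seen. Over all probe sets, the 133 calls became 896 with the replicate block, 2586 with the block whatever the fold, 41 without the variance filter, 0 with unannotated rows in it, 54 with dim probe sets removed, 427 with the trended and robust prior and 4 to 508 when single arrays were left out. The block fit gave 0 to 926 calls when a pair was left out. The cause of these shifts was not tested. In the related lists 5 genes were called with the replicate block and 0 without it.

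Against the Krtap line 15 members lay above background, in place of 45 against the receptor line. Id2 differed by -0.38 with an adjusted p of 0.0218 in the block fit and by -0.70 without knockdown replicate 3, and by -0.70 to -0.063 over single arrays left out. After median centring it differed by -0.37, short of 1.3-fold. The sign turned on single arrays for Pou3f1 (-0.17 to 0.054), Pou3f2 (-0.084 to 0.16), Pou3f3 (-0.063 to 0.19), Pou3f4 (-0.15 to 0.042), Sox8 (-0.078 to 0.072), Sox9 (-0.094 to 0.15), Myt1 (-0.0084 to 0.21) and St18 (-0.24 to 0.093). For the other named members the sign held under every alternative run. The replicate block changed no other member's call.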
